A study of Mus musculus with 7 samples.

Results

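Goblet cell genes were followed across whole colon tumors of transplanted mice. They were 10 of the 43346 genes in the count table, taken by symbol and not by their values. They fall into 3 roles. Atoh1 and Spdef encode transcription factors of the goblet cell program. Muc2, Fcgbp, Clca1, Zg16 and Tff3 encode proteins of the mucus layer. Agr2, Spink4 and Retnlb encode a protein of the secretory pathway and other secreted proteins.

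Goblet cells are the mucus-secreting cells of the intestinal epithelium. Atoh1 opens the secretory lineage where Notch signaling is low, and Spdef acts downstream of it in goblet cell maturation. Muc2, the gel-forming mucin of the colon, is folded with the help of Agr2, heavily glycosylated, packed into granules and released together with Fcgbp, Clca1, Zg16 and Tff3 to build the layer that separates bacteria from the epithelium. Mice without Muc2 develop colitis and intestinal tumors, and loss of goblet cells is a familiar feature of dextran sulfate sodium (DSS) colitis.

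The study asked whether blood cells that have lost 1 copy of Dnmt3a, a DNA methyltransferase gene often mutated in clonal hematopoiesis, change colitis-associated cancer (CAC). Wild type recipients, C57BL6/J by the labels and congenic CD45.1 mice by the study's methods, received bone marrow (BM) labeled Dnmt3a(+/-) or Dnmt3a(+/+). All of them then received 1 injection of azoxymethane (AOM) at 10 mg/kg and 3 cycles of 3% DSS, each of 1 week with 2 weeks off. Recipients were 8 weeks old by the labels, while the study's methods give another age. Polyadenylated RNA of 4 tumors with Dnmt3a(+/-) BM and 3 tumors with Dnmt3a(+/+) BM was sequenced. By the study's methods, donors of Dnmt3a(+/-) BM carried a floxed Dnmt3a allele and Mx1-Cre, an interferon-inducible Cre switched on with poly(I:C), and control donors also carried Mx1-Cre. Only the graft carried the deletion, so the epithelium that makes goblet cells was wild type in both groups. The tumors came from 2 transplantation experiments named in the labels. BMT18 gave replicates 1 and 2 of each group, and BMT8 gave Dnmt3a(+/+) BM replicate 3 and Dnmt3a(+/-) BM replicates 3 and 4.

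Total counts ranged from 38472738 to 64314999 per tumor, and every level below is in CPM, a count scaled to its library size, with library sizes adjusted by TMM. Groups were compared with edgeR's quasi-likelihood test over 15810 genes, and a gene was called at a Benjamini-Hochberg adjusted p under 0.05 with an absolute log2 fold change over 1. By this rule edgeR called 0 genes (0% of the genes tested), with 1744 genes at an unadjusted p under 0.05 and a lowest adjusted p of 0.361, whereas DESeq2 called 304 (1.92%). Dnmt3a transcripts averaged 22.5 CPM (SD 2.06, 3 tumors) in the control group and 30.3 CPM (SD 8.94, 4 tumors) in the other, which does not check the graft because these are whole tumors. Replicates are tumors, and p-values measure the spread between tumors. In bulk tumors, fewer goblet cells and less RNA per goblet cell cannot be told apart.

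All 10 genes had a log2 fold change below 0 (Dnmt3a(+/-) BM minus Dnmt3a(+/+) BM), where 49.8% of all genes did, with a median of -0.92 against 0.0025 over all genes. That fit did not include the transplantation experiment. With the experiment as a covariate, 8 of the 10 were below 0 and their median was -0.59, against 0.016 over all genes. None was called by edgeR. DESeq2 called 1 of them, Spink4, which encodes a small secreted protease inhibitor of goblet cells and was 2.19-fold lower with Dnmt3a(+/-) BM. At an unadjusted p under 0.05, edgeR placed 3 of the 10 lower (Spink4, Agr2 and Tff3), where 5.20% of all genes were. In 2 of the 10, Spink4 and Agr2, every tumor with Dnmt3a(+/-) BM lay below every tumor with Dnmt3a(+/+) BM, where 6.32% of all genes showed that order. The sum of the 10 CPM values was 3375, 4408 and 1614 in Dnmt3a(+/+) BM replicates 1 to 3 and 1765, 2406, 2279 and 667 in Dnmt3a(+/-) BM replicates 1 to 4. The groups therefore overlapped in this sum, because Dnmt3a(+/+) BM replicate 3 lay below all but the lowest tumor of the other group. The direction depends on the scaling for some genes. Scaling to the summed counts of 12 pan-epithelial genes raised the median of all genes to 0.69 and left 6 of the 10 below 0, and using library size alone raised that median to 0.21 and left 9 below 0. Relative to the median of all genes in the same setting, 9 of the 10 lay below it under both scalings and Muc2 did not. Taking off that median largely undoes the scaling, so this does not test whether the differences outlast it.

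**Figure D1:**
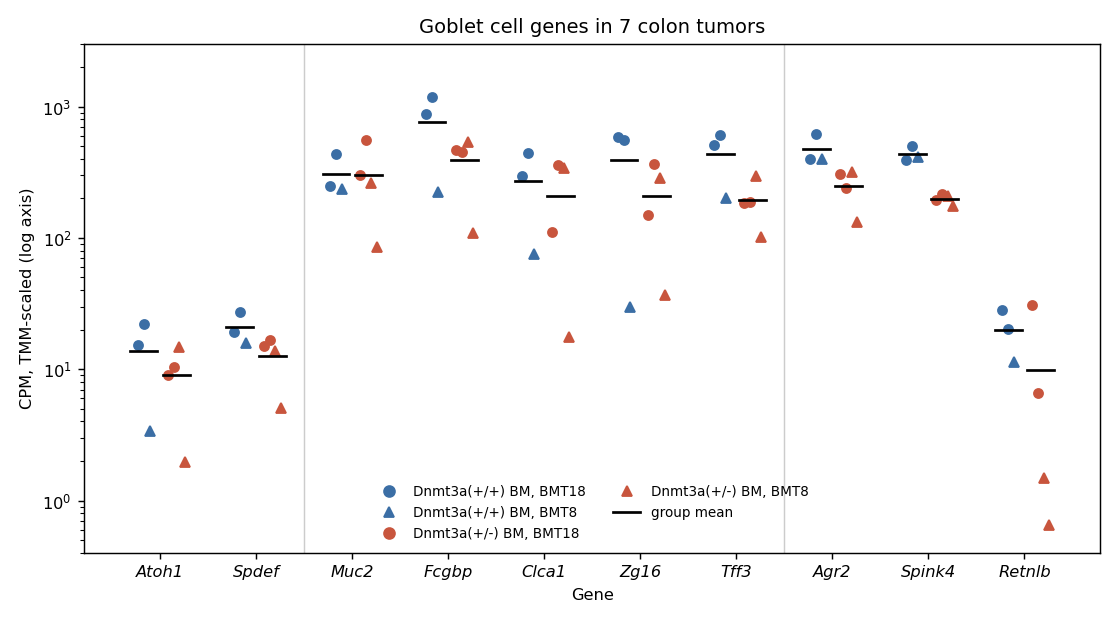
CPM of each goblet cell gene in the 7 tumors on a log axis, with circles for BMT18, triangles for BMT8, blue for Dnmt3a(+/+) BM, red for Dnmt3a(+/-) BM and black bars for group means. Spink4 and Agr2 are the genes whose red and blue points do not overlap. For Atoh1, Clca1 and Zg16 the blue triangle (Dnmt3a(+/+) BM replicate 3) lies well below the blue circles.

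The transcription factors stood at low levels. Atoh1, the basic helix-loop-helix factor that starts the secretory lineage (ENSMUSG00000073043, chr6:64729125-64731245 on GRCm38), was at 15.4, 22.2 and 3.36 CPM in Dnmt3a(+/+) BM replicates 1 to 3. With Dnmt3a(+/-) BM it was at 9.03, 10.4, 14.7 and 1.97 CPM in replicates 1 to 4. Both groups held a tumor with little Atoh1, and both of those tumors came from BMT8. The log2 fold change was -0.60 with an SE of 0.74 (edgeR unadjusted p = 0.442, adjusted p = 0.813). Spdef, the ETS-family factor of goblet and other mucous cells (ENSMUSG00000024215, chr17:27714352-27728955), was at 19.4, 27.4 and 16.0 CPM in the Dnmt3a(+/+) BM tumors. In the Dnmt3a(+/-) BM tumors it was at 15.1, 16.8, 13.8 and 5.11 CPM. Only Dnmt3a(+/-) BM replicate 2 reached into the range of the other group. The log2 fold change of Spdef was -0.72 with an SE of 0.40 (edgeR unadjusted p = 0.113, adjusted p = 0.539).

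Among the mucus-layer genes, Muc2 had the smallest difference of the 10. Muc2 (ENSMUSG00000025515, chr7:141690340-141754693) was at 249.6, 435 and 236 CPM with Dnmt3a(+/+) BM and at 300.3, 554, 261 and 85.4 CPM with Dnmt3a(+/-) BM. The tumor with the most Muc2 and the tumor with the least both belonged to the Dnmt3a(+/-) BM group. Its log2 fold change was -0.03 with an SE of 0.55 (edgeR adjusted p = 0.991), and its sign turned under several of the alternatives given in the closing section.

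Fcgbp, the IgG Fc binding protein found bound to Muc2 in mucus (ENSMUSG00000047730, chr7:28071236-28120862), was at 883, 1176 and 224 CPM with Dnmt3a(+/+) BM. With Dnmt3a(+/-) BM it was at 464, 450, 537 and 109 CPM. In BMT18 both Dnmt3a(+/-) BM tumors lay below both control tumors, and in BMT8 they lay on either side of the control. The log2 fold change was -0.96 with an SE of 0.64 (edgeR unadjusted p = 0.174, adjusted p = 0.605). Clca1, a metalloprotease that processes mucus (ENSMUSG00000028255, chr3:145003817-145032776), was at 295, 443 and 75.1 CPM with Dnmt3a(+/+) BM and at 111, 361, 338 and 17.7 CPM with Dnmt3a(+/-) BM. Its values spread 25.04-fold from the lowest to the highest tumor, with the groups interleaved, and its log2 fold change was -0.39 with an SE of 0.93 (edgeR adjusted p = 0.919). Zg16, a lectin that binds Gram-positive bacteria (ENSMUSG00000049350, chr7:127050156-127087328), was at 588, 560 and 30.0 CPM with Dnmt3a(+/+) BM and at 149, 363, 286 and 36.8 CPM with Dnmt3a(+/-) BM. The spread inside the Dnmt3a(+/+) BM group was 19.6-fold, the widest of the 10 in that group, and the log2 fold change of -0.91 had an SE of 0.98 (edgeR adjusted p = 0.772).

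Tff3, the trefoil peptide secreted with Muc2 that aids epithelial repair (ENSMUSG00000024029, chr17:31125306-31129646), was at 506, 607 and 202 CPM with Dnmt3a(+/+) BM and at 185, 189, 298 and 103 CPM with Dnmt3a(+/-) BM. The groups overlapped only between Dnmt3a(+/+) BM replicate 3 and Dnmt3a(+/-) BM replicate 3. Tff3 had the largest fold change of the 10, a log2 value of -1.18 with an SE of 0.44, or 2.26-fold lower, and it was not called (edgeR unadjusted p = 0.0300, adjusted p = 0.420, DESeq2 adjusted p = 0.177). Without Dnmt3a(+/+) BM replicate 3, DESeq2 called Tff3 at a log2 fold change of -1.50 (adjusted p = 0.0182).

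Agr2, a protein disulfide isomerase of the endoplasmic reticulum needed for Muc2 production (ENSMUSG00000020581, chr12:35992907-36004087), was at 398, 615 and 403 CPM with Dnmt3a(+/+) BM. It was at 306, 240.4, 319 and 133 CPM with Dnmt3a(+/-) BM, each value below the lowest control. The log2 fold change was -0.92 with an SE of 0.32, or 1.89-fold lower (edgeR unadjusted p = 0.0224, adjusted p = 0.406, DESeq2 adjusted p = 0.175). A two-sided exact permutation test over the 35 splits of the tumors gave p = 0.0571 on log2 CPM, where the smallest p this design allows is 0.0286.

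Spink4 separated the groups most cleanly (ENSMUSG00000028415, chr4:40920052-40931395). It was at 393, 502 and 414 CPM in Dnmt3a(+/+) BM replicates 1 to 3 and at 195, 215, 210 and 175 CPM in Dnmt3a(+/-) BM replicates 1 to 4. The 4 tumors with Dnmt3a(+/-) BM lay within 1.23-fold of each other and the 3 controls within 1.28-fold, so the gap between the groups exceeded the spread inside either. The means were 436 ± 57.6 CPM (SD, n = 3) and 199 ± 17.996 CPM (n = 4). The log2 fold change was -1.13 with an SE of 0.16 (edgeR unadjusted p = 0.000112, adjusted p = 0.361), and the exact permutation test gave p = 0.0286, the smallest it can give. DESeq2 called it with a log2 fold change of -1.12 and an adjusted p of 1.58e-06, among 66 genes called lower (0.417% of the genes tested). It was called in all 9 DESeq2 fits, those without each tumor in turn and with the experiment as a covariate included. These fits share most of their tumors. Without Dnmt3a(+/+) BM replicate 2 the log2 fold change was -1.002, barely past the threshold. No edgeR fit called Spink4. Under the pan-epithelial scaling its log2 fold change was -0.40 (edgeR adjusted p = 0.478). That is -1.09 relative to the median of all genes in that setting, a step that largely undoes the scaling.

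Retnlb, a resistin-like protein of goblet cells that acts on bacteria and worms (ENSMUSG00000022650, chr16:48816856-48818892), varied most. It was at 28.2, 20.1 and 11.4 CPM with Dnmt3a(+/+) BM and at 30.99, 6.62, 1.48 and 0.649 CPM with Dnmt3a(+/-) BM, down to 24 counts in replicate 4 of that group. A single tumor, Dnmt3a(+/-) BM replicate 1, was higher than all controls, and the other 3 of that group lay below all controls. The log2 fold change was -1.0 with an SE of 1.13 (edgeR adjusted p = 0.788). Without that tumor DESeq2 called Retnlb, at a log2 fold change of -2.75 (adjusted p = 0.0120). That fit called 201 of 15810 genes lower, against 66 with all 7 tumors. Retnlb and Clca1 have close relatives in the genome, so their counts may depend on how shared reads were divided, which was not tested.

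**Figure D2:**
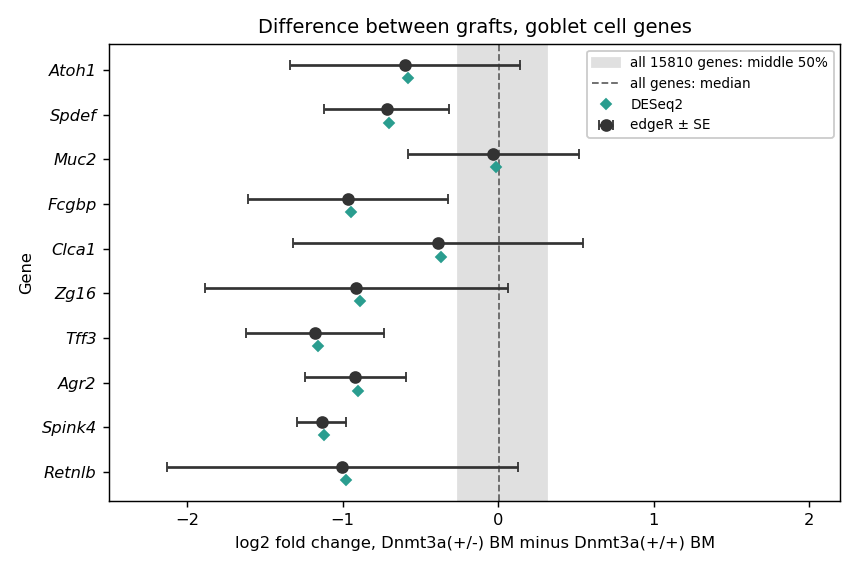
Log2 fold change of the 10 goblet cell genes, Dnmt3a(+/-) BM minus Dnmt3a(+/+) BM on the TMM scale, by edgeR (black circles with SE) and DESeq2 (green diamonds), with the median (dashed) and the middle 50% (grey) of all 15810 genes. The points run from -1.18 (Tff3) to -0.03 (Muc2), and the bar of Spink4 is the shortest. Under the pan-epithelial scaling Atoh1, Spdef, Muc2 and Clca1 lay above 0, and with library size alone Muc2 did.

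Levels of different genes can be compared only per length. In CPM per kilobase of exon, the median over the 7 tumors was highest for Spink4 (452), followed by Tff3 (409), Agr2 (247) and Zg16 (227). Clca1 (78.1), Fcgbp (44.2) and Muc2 (36.7) came next, and Retnlb (16.3), Spdef (6.93) and Atoh1 (4.89) were the lowest. Neighbors in this order overlapped across tumors. For example, Spink4 ranged from 367 to 1052 and Tff3 from 208 to 1231 CPM per kilobase. The order set Spink4 and Tff3, the secreted products with the shortest exon lengths, at the top. The large glycoproteins Fcgbp and Muc2 stood in the middle and both transcription factors at the bottom. Retnlb, the next shortest secreted product, stood just above the transcription factors.

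The levels of the 10 genes were positively correlated from tumor to tumor. Dnmt3a(+/-) BM replicate 4 was the lowest tumor for 9 of them, with Zg16 the exception, and Dnmt3a(+/+) BM replicate 2 was the highest for 7. Across the 7 tumors, Pearson's r of log2 CPM was positive for 45 of 45 pairs, with a median of 0.75 and a range from 0.27 (Zg16 and Spink4) to 0.98 (Atoh1 and Fcgbp). In 13 pairs the permutation p of Pearson's r, exact over all orders of the tumors and adjusted over the 45 pairs, was under 0.05, and for Spearman's rho (median 0.61) this held in 0 pairs, with a lowest adjusted p of 0.119. Taking each value as its deviation from the group mean left 45 of 45 positive with a median of 0.77. Leaving out the 2 tumors farthest from the median of the first-listed gene of each pair lowered the median r to 0.54 and left 40 of 45 positive. Leaving out extreme tumors narrows the range, which by itself lowers r. The drop therefore does not show how far the correlation rests on those tumors. These points share tumors, depth and cell makeup.

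Atoh1 and Fcgbp were the closest pair, with r = 0.976 (exact permutation p = 0.000397, adjusted p = 0.0179) and rho = 0.964 (exact permutation p = 0.00278, adjusted p = 0.119) over 7 tumors, and r = 0.910 without the 2 farthest tumors. Among the pairs with Spdef, the closest was with Agr2, with r = 0.923 (exact permutation p = 0.00813, adjusted p = 0.0366) and rho = 0.679 (exact permutation p = 0.110, adjusted p = 0.235), but r fell to 0.271 without the 2 farthest tumors. Spink4 followed the other 9 least, with a median r of 0.54, and Fcgbp followed them most, with a median r of 0.88. Spink4 thus had the smallest spread inside each group and the lowest median r with the rest.

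**Figure D3:**
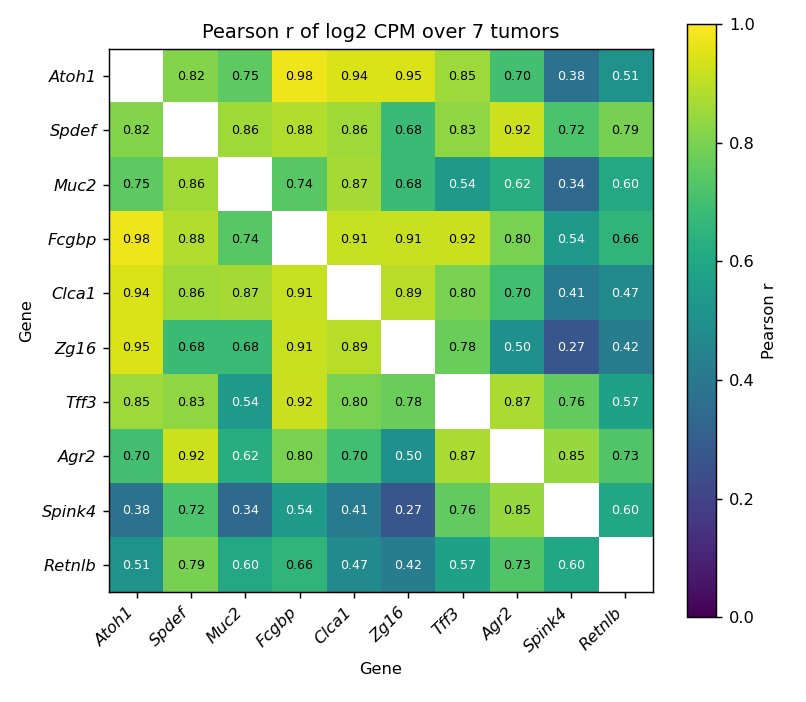
Pearson's r of log2 CPM over the 7 tumors for each pair of goblet cell genes, both axes listing the 10 genes and color giving r from 0 to 1. All pairs are positive, Atoh1 and Fcgbp reach 0.98, and the row of Spink4 holds the lowest value, 0.27 with Zg16.

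Ratios between genes within a tumor do not depend on the scaling. They were chosen after the values had been seen. Of the 45 ratios between pairs of the 10 genes, 1 separated the groups, Spdef to Muc2. Spdef stood at 0.0776, 0.0631 and 0.0677 of Muc2 CPM with Dnmt3a(+/+) BM and at 0.0504, 0.0303, 0.0529 and 0.0598 with Dnmt3a(+/-) BM. The difference in log2 ratio was -0.56 (exact permutation p = 0.0571, adjusted over the 45 ratios 0.935). No ratio of the 45 had an exact permutation p under 0.05. Ratios of the 10 genes to Epcam, an adhesion molecule of all colon epithelial cells, separated the groups in 0 of 10 cases. For Spink4 this ratio was 0.196, 0.187 and 0.128 with Dnmt3a(+/+) BM and 0.124, 0.140, 0.105 and 0.0718 with Dnmt3a(+/-) BM, and its log2 value differed by -0.65 (exact permutation p = 0.114, adjusted over the 10 ratios 1.0). Spink4 CPM relative to Epcam thus overlapped between the groups through Dnmt3a(+/+) BM replicate 3 and Dnmt3a(+/-) BM replicate 2.

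The difference was also read within each transplantation experiment. Within BMT18, with 2 tumors against 2, both Dnmt3a(+/-) BM tumors lay below both controls for 7 of the 10 genes (26.2% of all genes), and the median difference of mean log2 CPM was -0.90. With BMT18 alone, edgeR placed 5 genes lower at an unadjusted p under 0.05 (Atoh1, Fcgbp, Tff3, Agr2 and Spink4), where 5.88% of all genes were, with an adjusted p of 0.492 for each. Within BMT8, with 2 tumors against 1, both lay below the control for 4 genes (Spdef, Agr2, Spink4 and Retnlb; 35.5% of all genes) and above it for 1 (Zg16; 36.5% of all genes), and the median difference was -0.43. BMT8, with a single control tumor, was not fitted alone. Spink4 and Agr2 were alike in both, at -1.12 and -1.11 for Spink4 and -0.87 and -0.97 for Agr2 in BMT18 and BMT8. Zg16 differed by -1.30 in BMT18 and by 1.77 in BMT8, and Retnlb by -0.73 and -3.47. In edgeR's test of the difference between experiments, 0 of 15810 genes passed an adjusted p under 0.05, and 730 (4.62%) had an unadjusted p under 0.05, Retnlb among them (unadjusted p = 0.0457, adjusted p = 1.00). With the experiment as a covariate, Spink4 had a log2 fold change of -1.12 (edgeR adjusted p = 0.261) and Agr2 one of -0.87 (edgeR adjusted p = 0.307), whereas the log2 fold change of Zg16 was -0.03 (edgeR adjusted p = 0.992). The median of the 10 genes went from -0.92 to -0.59.

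**Figure D4:**
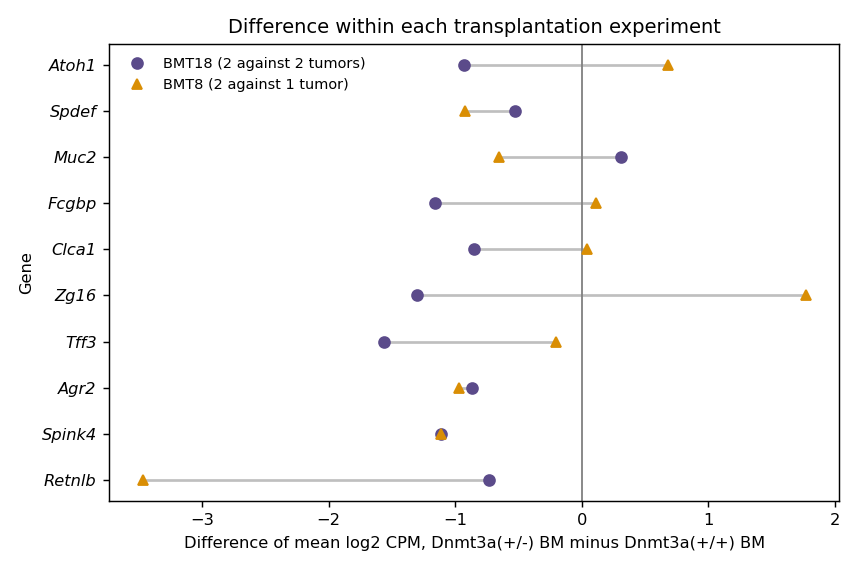
Difference of mean log2 CPM between grafts within BMT18 (purple circles, 2 against 2 tumors) and BMT8 (yellow triangles, 2 against 1 tumor) for each goblet cell gene, joined by a grey line. The points of Spink4 and Agr2 nearly coincide, and those of Zg16 lie on opposite sides of 0 (-1.30 and 1.77).

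Promoter sequence was available for 5 of the 10 genes (Muc2, Fcgbp, Agr2, Atoh1 and Spdef) in the RefSeq table for GRCm38.p6. The 250 bases before the start of the secreted products are shown because these genes are products of the secretory program that Atoh1 and Spdef direct. The protein families of these factors bind E-boxes (CANNTG) and GGAT cores, respectively. Over the 7 tumors Fcgbp passed the adjusted Pearson test with both factors, Agr2 with Spdef only and Muc2 with neither. Each is printed 5′ to 3′ on the strand of the gene with E-boxes in capitals.
Muc2: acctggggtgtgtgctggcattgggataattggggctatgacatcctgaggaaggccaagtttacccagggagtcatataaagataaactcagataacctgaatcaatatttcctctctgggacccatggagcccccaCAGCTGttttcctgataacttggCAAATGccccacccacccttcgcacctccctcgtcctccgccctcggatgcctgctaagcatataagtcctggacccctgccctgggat
Fcgbp: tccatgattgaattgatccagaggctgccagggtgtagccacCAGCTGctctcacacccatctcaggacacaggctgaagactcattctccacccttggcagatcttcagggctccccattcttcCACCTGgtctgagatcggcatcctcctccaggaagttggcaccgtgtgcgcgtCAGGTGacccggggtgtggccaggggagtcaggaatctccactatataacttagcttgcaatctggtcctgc
Agr2: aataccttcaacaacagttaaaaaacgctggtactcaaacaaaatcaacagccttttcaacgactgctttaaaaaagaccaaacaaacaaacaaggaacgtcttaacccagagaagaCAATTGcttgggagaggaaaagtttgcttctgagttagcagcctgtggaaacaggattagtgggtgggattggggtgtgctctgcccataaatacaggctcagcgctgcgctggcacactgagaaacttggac

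These windows lie on the plus strand at chr7:141690090-141690339 (Muc2), chr7:28070986-28071235 (Fcgbp) and chr12:35992675-35992924 (Agr2). The RefSeq start of Agr2 lies downstream of the gene start given above (chr12:35992907), so the end of its window falls inside the gene as annotated by GENCODE. The bases just after the RefSeq start were found in a GENCODE transcript of the gene for Muc2 and Agr2 but not for Fcgbp. Searched on both strands, CANNTG matched 2 times in Muc2, 3 times in Fcgbp and 1 time in Agr2, and 0 times in the windows of Atoh1 and Spdef. It was present in 66.2% of all 32851 windows of this length. The E-box CAGCTG, which is 1 form of CANNTG, matched 1 time each in Muc2 and Fcgbp and was present in 13.0% of windows. GGAT on either strand matched 4 times in Muc2, 2 times each in Fcgbp and Agr2, 5 times in Spdef and 0 times in Atoh1, and was present in 74.1% of windows. A match describes letters in the window only.

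The other genes of the goblet program were read from 7 further lists, again without a set test, and edgeR called 0 genes in each. Of 9 transcription factors and regulators of the secretory lineage tested, 5 had a log2 fold change below 0 and 2 of these an unadjusted p under 0.05, where 49.8% of all genes were below 0 and 5.20% were also under that p. Klf4, a differentiation factor of goblet cells, was at 530, 447 and 288 CPM with Dnmt3a(+/+) BM and at 329, 91.8, 236 and 189 CPM with Dnmt3a(+/-) BM (log2 fold change -0.99, edgeR adjusted p = 0.437). Elf3, an epithelial ETS factor, was lower in all 4 tumors, at 495 to 606 CPM against 671 to 822 CPM (log2 fold change -0.38, edgeR adjusted p = 0.450). Of the 9 genes, 1 was lower without overlap, where 6.32% of all genes were. Foxa2 (0.63) and Creb3l1 (-0.66) had adjusted p values of 0.640 and 0.661 in edgeR, and Gfi1, which acts in secretory progenitors, was at 1.32 to 3.76 CPM in the 7 tumors (log2 fold change -0.31). The group was thus mixed, with a median of -0.14.

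Notch signaling holds cells out of the secretory lineage. Of the 7 genes tested, 4 had a log2 fold change above 0 and 3 below it, and 0 had an unadjusted p under 0.05. Hes1, the Notch target that represses Atoh1, was at 92.4, 68.3 and 77.1 CPM with Dnmt3a(+/+) BM and at 70.7, 30.7, 63.4 and 72.2 CPM with Dnmt3a(+/-) BM (log2 fold change -0.42, edgeR adjusted p = 0.620). Notch1 (0.55), its nuclear partner Rbpj (0.23) and the ligand Dll4 (0.20) had edgeR adjusted p values from 0.536 to 0.876.

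Among other secreted products of goblet cells or of gut epithelium, 7 of 9 tested genes had a log2 fold change below 0, 3 of them with an unadjusted p under 0.05 (5.20% of all genes), and 1 above 0 (Muc6) passed it too, where 5.83% of all genes did in that direction. Reg4, a secreted lectin of goblet and enteroendocrine cells, was at 198, 476 and 320.2 CPM with Dnmt3a(+/+) BM and at 152, 125, 210 and 142 CPM with Dnmt3a(+/-) BM (log2 fold change -1.08, edgeR adjusted p = 0.373, DESeq2 adjusted p = 0.0730). Pla2g10, a secreted phospholipase, was lower in all 4 tumors, at 17.7 to 52.5 CPM against 68.6 to 85.4 CPM (log2 fold change -1.05, edgeR adjusted p = 0.384), and Guca2a, which encodes guanylin, had a log2 fold change of -0.67 (edgeR adjusted p = 0.426). Muc6, a gel-forming mucin of gastric glands, went the other way. It was at 0.457, 0.640 and 1.65 CPM with Dnmt3a(+/+) BM and at 1.67, 6.34, 13.2 and 5.73 CPM with Dnmt3a(+/-) BM (log2 fold change 2.89, edgeR adjusted p = 0.361), and DESeq2 called it (adjusted p = 0.00538). Higher levels in every tumor of the group, as in Muc6, were found for 6.12% of all genes, and lower levels in every tumor, as in Pla2g10, for 6.32%. The gastric mucin gene Muc5ac and the trefoil genes Tff1 and Tff2 stayed at or below 0.203 CPM in all 7 tumors and were not tested.

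Mucin glycosylation genes were mostly on the low side, with 19 of 23 tested genes below 0 (49.8% of all genes) and a median of -0.42. At an unadjusted p under 0.05 there were 5 lower (5.20% of all genes). Galnt6, which starts O-glycan chains, was at 95.8, 142 and 98.0 CPM with Dnmt3a(+/+) BM and at 66.8, 57.0, 72.2 and 62.0 CPM with Dnmt3a(+/-) BM, without overlap (log2 fold change -0.80, edgeR adjusted p = 0.361, DESeq2 adjusted p = 0.0273). DESeq2 did not call it, with a log2 fold change of -0.78. Nans, an enzyme of sialic acid synthesis (-0.71), and C1galt1c1, the chaperone of the core 1 synthase (-0.38), did not overlap between groups either, with edgeR adjusted p values of 0.384 and 0.3995. Of the 23 genes, 4 were lower without overlap, where 6.32% of all genes were. B3gnt7 overlapped (-1.11, edgeR adjusted p = 0.444). The core 1 synthase C1galt1 itself had a log2 fold change of -0.42 (edgeR adjusted p = 0.698), and the sialyltransferase gene St6galnac1 was at or below 0.214 CPM in all tumors and not tested.

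Of 17 genes of folding and exocytosis, 13 had a log2 fold change below 0 (49.8% of all genes) and 1 of them, Nlrp6, an unadjusted p under 0.05, a share near the 5.20% of all genes. Nlrp6, an inflammasome gene tied to mucus granule release, was at 105, 127 and 44.3 CPM with Dnmt3a(+/+) BM and at 49.1, 28.6, 55.1 and 13.2 CPM with Dnmt3a(+/-) BM (log2 fold change -1.33, edgeR adjusted p = 0.425). Ern2, the endoplasmic reticulum stress sensor of mucous cells, had a log2 fold change of -1.0 (edgeR adjusted p = 0.465), and the exocytosis genes Vamp8 (-0.43) and Stxbp2 (-0.30) had adjusted p values of 0.550 and 0.567 in edgeR. Of 7 transmembrane mucins tested, 6 were below 0 and 1 of these passed an unadjusted p under 0.05, against the same shares of all genes. That gene, Muc13, was at 3037, 3762 and 4434 CPM with Dnmt3a(+/+) BM and at 2005, 1384, 2434 and 2562 CPM with Dnmt3a(+/-) BM, without overlap (log2 fold change -0.84, edgeR adjusted p = 0.393, DESeq2 adjusted p = 0.0813). Of the 7 transmembrane mucins, 1 was lower without overlap, where 6.32% of all genes were. Cytokines and receptors that act on goblet cells gave 6 tested genes of 12, the interleukin genes Il4, Il5, Il9, Il13, Il22 and Il25 being too low to test. Il13ra1, a receptor chain for interleukin 13, had a log2 fold change of -0.55 (edgeR unadjusted p = 0.0218, adjusted p = 0.406), Il22ra1 one of -1.0 (adjusted p = 0.529) and the alarmin gene Il33 one of 0.84 (adjusted p = 0.484).

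**Figure D5:**
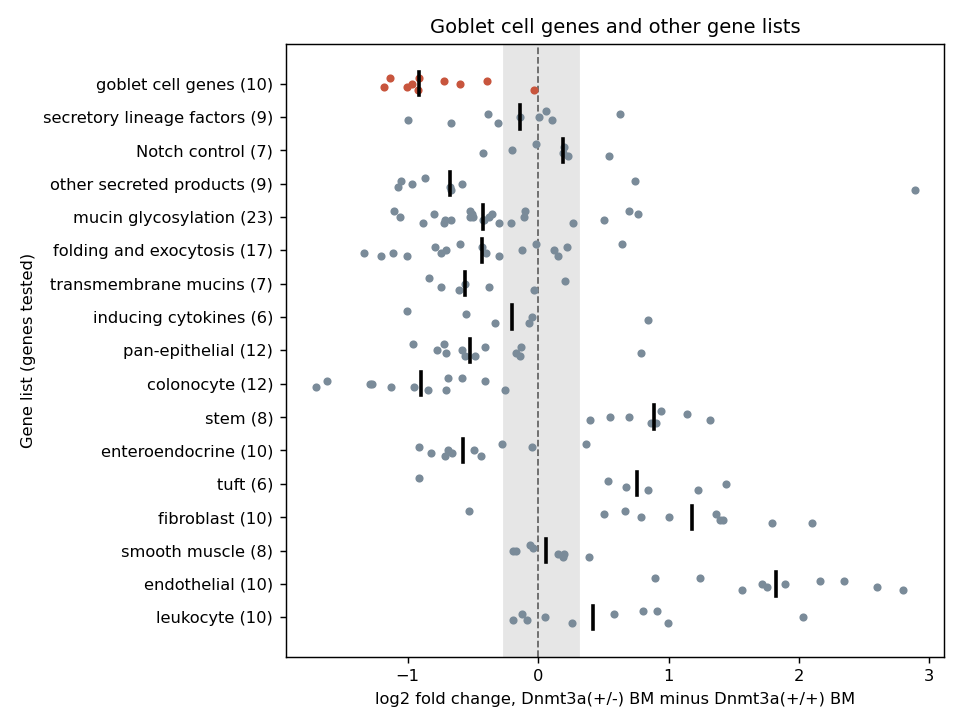
Log2 fold change (Dnmt3a(+/-) BM minus Dnmt3a(+/+) BM, TMM scale) of each tested gene in 17 gene lists, 1 point a gene with a black bar at the median, and the median (dashed) and middle 50% (grey) of all genes. The medians are -0.92 for the goblet cell genes, -0.90 for colonocyte genes and -0.52 for pan-epithelial genes, and 0.89 for stem cell, 1.18 for fibroblast and 1.83 for endothelial genes. Under the pan-epithelial scaling the median of all genes is 0.69.

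Marker genes of other cell types were read in the same tumors, and edgeR called none of them. Of all genes, 49.8% were below 0. At an unadjusted p under 0.05, 5.20% of all genes were lower and 5.83% higher. The 12 pan-epithelial genes summed to 20198 to 39449 CPM with Dnmt3a(+/+) BM and to 11172 to 25237 CPM with Dnmt3a(+/-) BM, so that the groups overlapped, with 11 of 12 below 0, 3 of them lower at an unadjusted p under 0.05, and a median log2 fold change of -0.52. Epcam alone was at 2004, 2680 and 3239 CPM against 1574, 1543, 2004 and 2437 CPM (log2 fold change -0.48, edgeR adjusted p = 0.531). The 12 genes of mature colonocytes had 12 of 12 below 0 and a median of -0.90, close to that of the goblet cell genes. Of these, 1 had an unadjusted p under 0.05, near the share of all genes. Ceacam20, chosen after its values were seen, was the 1 colonocyte gene that DESeq2 called (log2 fold change -1.11, adjusted p = 0.00172), where 0.417% of all genes were called lower. Stem cell genes had 8 of 8 above 0 (median 0.89), 3 of them at an unadjusted p under 0.05. Endothelial genes had 10 of 10 above 0 (median 1.83), 8 of them at an unadjusted p under 0.05, summing to 17.5 to 35.5 CPM against 39.5 to 184 CPM. DESeq2 called 1 of the 8 stem cell genes and 4 of the 10 endothelial genes, where it called 238 of all 15810 genes higher. The fibroblast median of 1.18 became 0.24 without Dnmt3a(+/-) BM replicate 2, whose fibroblast genes summed to 1445 CPM. The 8 smooth muscle genes summed to 23.4 CPM in Dnmt3a(+/+) BM replicate 3 and to 250.3 to 1198 CPM in the other 6 tumors. That tumor also held 3.52 CPM of Car4 and 3.55 CPM of Aqp8, both colonocyte genes. The other control tumors held 140.4 to 164 and 65.3 to 91.9 CPM of them. Dnmt3a(+/-) BM replicate 4 was low too, at 4.51 and 5.11 CPM. The colonocyte gene Krt20 went the other way, at 1103 CPM in Dnmt3a(+/+) BM replicate 3 against 981 and 744 CPM in the other controls. All 12 colonocyte genes summed to 3267 CPM in that tumor and to 4105 and 3510 CPM in the other controls. The part of these differences in the goblet cell values was not tested.

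By the likeness of its pattern to the mean standardized profile of the 10 genes, Gsdmc4 (r = 0.990 over 7 tumors), Tnip1 (0.984), Sval1 (0.981), Siglecf (0.981) and A4gnt (0.979) came first among the other genes tested, of which 175 had r over 0.9. These correlations are a description of the same 7 tumors. Gsdmc4, a gasdermin gene of gut epithelium, was at 362, 424 and 187 CPM with Dnmt3a(+/+) BM and at 190, 213, 203 and 79.6 CPM with Dnmt3a(+/-) BM. A4gnt, the enzyme of a mucin O-glycan cap, was at 0.194 to 6.45 CPM, and Siglecf at 0.73 CPM or less.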

How the data were processed

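RNA of 7 whole colon tumors was measured, 4 with Dnmt3a(+/-) BM and 3 with Dnmt3a(+/+) BM. The authors enriched polyadenylated RNA, made strand-marking paired-end libraries, used Trimmomatic for read trimming, STAR for alignment to mm10 and RSEM for counting, per the labels and the study's methods; the annotation release is not given in the sources used here. The values the authors deposited are RSEM's estimated counts per gene, 100% of them whole numbers, without normalization. Rows without a symbol held 0.104% of the counts and stayed in the fit. Symbols, positions and exon lengths are those of GENCODE M21.

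Counts were scaled by TMM, filtered with filterByExpr (15810 genes kept) and compared with edgeR 4.0.16 in R 4.3.3, by the quasi-likelihood test with Benjamini-Hochberg adjustment over all genes tested. Log2 CPM values used a prior count of 2. Permutation tests covered all 35 splits of the tumors. DESeq2 1.42.0 was run as an alternative test. Other settings changed the scaling, the filter or the dispersion estimate, added the experiment or a block for the replicate number to the model, or used BMT18 alone, each tumor left out in turn, a prior count of 0.5 and CPM in place of log2 CPM. The steps were tested on simulated data whose changes were all larger than those of the goblet cell genes, so changes of that size were not covered. Genes named in the text were the 10 goblet cell genes, in each further goblet list up to 4 tested genes with the lowest unadjusted p, a fixed set that runs from Hes1 to Epcam and the 5 genes most like the mean profile. The genes and lists were chosen with earlier results of these data known. The closest tumors, replicate 1 of each group, had a Spearman correlation of 0.983 and differed beyond sampling noise, so no tumor was counted as a duplicate. Promoter windows came from RefSeq on GRCm38.p6. Normal colon, staining, protein and drug treatment were not analysed here.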

Additional observations from a re-analysis of the deposited data

Results flagged for a closer look

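Tnip1, 1 of the 5 genes closest in pattern to the goblet cell genes, stood apart in a single tumor. It was at 45.1 CPM in Dnmt3a(+/-) BM replicate 4 and at 72.6 to 76.3 CPM in the other 3 tumors of that group. The gap is larger than Dixon's 95% critical value for 4 samples. Of 45 genes examined this way 1 stood out, where chance gives about 2.25.

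Zg16 and Il18 went opposite ways in the transplantation experiments. Zg16 was lower with Dnmt3a(+/-) BM in BMT18 and higher in BMT8, every tumor included, and the difference between the experiments was 3.59 on the log2 scale (edgeR unadjusted p = 0.0645, adjusted p = 1.00). The single control of BMT8 had 30.0 CPM of Zg16, the lowest of the 7 tumors. Il18, which encodes an interleukin made by the epithelium, was at 33.3 and 34.4 CPM in the controls of BMT18 against 14.8 and 18.4 CPM, and at 22.4 CPM in the control of BMT8 against 24.2 and 38.5 CPM. Its difference between the experiments was 1.51 (edgeR unadjusted p = 0.0160, adjusted p = 1.00). Neither passed the adjusted test, and 46 genes were looked at.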

How the results depend on the processing

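Of the 10 goblet cell genes, Spink4, Agr2, Tff3, Fcgbp, Zg16 and Retnlb had a log2 fold change below 0 in every alternative run. For Zg16 this value came close to 0, at -0.031 with the experiment as a covariate (-0.0059 in DESeq2) and -0.00097 with the replicate block, against -0.91, and for Fcgbp it was -0.39 with the block, against -0.96. The number below 0 was 8 to 10 with each tumor left out, 8 with the experiment as a covariate and 6 with the pan-epithelial scaling. The number called was 0 in every edgeR fit. DESeq2 called 1 (304 genes in all), 1 (443 genes) with the experiment as a covariate, and 1 to 2 with each tumor left out. In those fits it called 221, 53 and 429 genes in all without Dnmt3a(+/+) BM replicates 1 to 3, and 637, 165, 193 and 249 without Dnmt3a(+/-) BM replicates 1 to 4. The number lower at an unadjusted p under 0.05 was 1 with library size alone, 0 with the pan-epithelial scaling, 5 in BMT18 alone, and with each tumor left out 1 to 4 in edgeR and 1 to 5 in DESeq2. It was 1 without Dnmt3a(+/+) BM replicate 2 in both tools, and without Dnmt3a(+/-) BM replicate 2 it was 1 in edgeR and 3 in DESeq2. It was 5 in DESeq2 without Dnmt3a(+/+) BM replicate 3. Over all genes, in either direction, that p was met by 1744 in the main edgeR fit and 2102 in DESeq2. In edgeR it was met by 1975 with library size alone, 2945 with the pan-epithelial scaling and 1499 in BMT18 alone. Without Dnmt3a(+/+) BM replicate 2 the numbers were 883 in edgeR and 1234 in DESeq2. Without Dnmt3a(+/-) BM replicate 2 they were 1114 and 1370. Without Dnmt3a(+/+) BM replicate 3 they were 1995 and 2428. The median of the 10 was -1.11 to -0.54 in edgeR with each tumor left out, -0.54 without Dnmt3a(+/+) BM replicate 2 and -0.59 without Dnmt3a(+/-) BM replicate 4.

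With the replicate number as a block, 1 of the 10 genes was lower at an unadjusted p under 0.05, the median was -0.41, and Muc2 (0.25) and Clca1 (0.096) lay above 0. Over all genes, in either direction, 1885 met that p in this setting. Same-numbered tumors correlated at 0.568, 0.0712 and -0.0372 in their deviations from the group means, so the numbers were not taken as pairs.

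Muc2 turned above 0 with library size alone (0.22), the upper quartile (0.061), the pan-epithelial scaling (0.88), the experiment as a covariate (0.0059, or 0.022 in DESeq2) and BMT18 alone (0.34), and with each tumor left out it ranged from -0.48 to 0.30 in edgeR and from -0.50 to 0.33 in DESeq2. Clca1 turned with the pan-epithelial scaling (0.37) and the experiment as a covariate (0.037, or 0.058 in DESeq2), and with each tumor left out it ranged from -0.82 to 0.16 in edgeR and from -0.81 to 0.19 in DESeq2 (0.017 without Dnmt3a(+/-) BM replicate 4). Atoh1 came close to 0 with the experiment as a covariate (-0.16) and with the replicate block (-0.0042), against -0.60. In edgeR without Dnmt3a(+/+) BM replicate 2 it was at -0.059. Atoh1 (0.054) and Spdef (0.077) turned with the pan-epithelial scaling only. Under that scaling, which raises all genes, these also turned: Elf3 (0.32), Creb3l1 (0.042), Hes1 (0.14), Guca2a (0.088), C1galt1c1 (0.29), Vamp8 (0.21), Stxbp2 (0.42), Muc1 (0.27), Muc3a (0.26), Il13ra1 (0.13), Il18 (0.19), Gfi1 (0.40), C1galt1 (0.29), Epcam (0.22) and Tnip1 (0.23). Muc1 was at 0.064 in BMT18 alone. With each tumor left out, Creb3l1 ranged from -0.99 to 0.016 in DESeq2, Rbpj from -0.0036 to 0.37 in edgeR and Dll4 from -0.060 to 0.41 in edgeR and from -0.055 to 0.40 in DESeq2. The exact permutation p of Agr2 was 0.0286 on CPM. For the other turns the cause was not tested.

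With 4 tumors against 3, the SE of the log2 fold change was 0.16 for Spink4 and 1.13 for Retnlb. Retnlb rested on 24 counts in its lowest tumor.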
